A study of Homo sapiens with 24 samples.

Results

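The measure described here is the interaction of 2 treatments in THP-1, a long-established line from a human monocytic leukaemia that was made macrophage-like by PMA, a phorbol ester (100 nM for 24 h). It asks of each gene whether the change produced by lipopolysaccharide (LPS) had another size in cells that had first received S-(1,2-dichlorovinyl)-L-cysteine (DCVC), a metabolite of the solvent trichloroethylene. The series title poses that question for inflammatory genes. All 24 libraries entered, in 4 groups of 6 lettered A to F. Control cells had medium only, DCVC cells 5 µM DCVC for 24 h, LPS cells 100 ng/mL LPS for 4 h, and DCVC_LPS cells the DCVC first and, once the medium had been replaced, the LPS. PMA was common to every group, and nothing in the labels says that the 6 libraries of a group were grown separately, so that p-values reflect no more than library-to-library spread, which may be technical. The cells are of 1 leukaemia line, which stands in for blood-derived macrophages only as a model. Members were the named genes with a mean of at least 10 normalized counts over the 24 libraries, 13900 of 38735. The lowest mean inside this limit was 10 and the highest outside it 9.99. A gene high in 1 group only can pass the limit through that group, and the sign of its interaction is then set. It is negative for LPS or DCVC and positive for Control or DCVC_LPS. Such genes are part of the counts and medians below.

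The interaction is (DCVC_LPS minus DCVC) minus (LPS minus Control) on log2(normalized count + 1). A value of 0 means that LPS multiplied the level by the same factor with and without DCVC, a negative value that the LPS change was shifted downward in DCVC-treated cells, and a positive value that it was shifted upward. The 2 LPS changes share no library. Group levels are normalized counts, as mean ± SD (n = 6), and changes and interactions are log2 ± SE with the 20 residual degrees of freedom of 1 fit over all groups, and a gene is called where the adjusted p from limma, with Benjamini-Hochberg adjustment over the 13900 genes, was under 0.05. "Higher" and "lower" below refer to the interaction, and "raised" and "lowered" to the LPS change.

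By way of background, LPS is sensed at the cell surface by TLR4 with CD14 and MD-2. One branch runs through the adaptors TIRAP and MYD88 to NF-kB and MAP kinases and switches on early cytokine genes. The other runs through TRAM and TRIF to IRF3, induces interferon beta, and the interferon then acts back on the cell through JAK kinases and STAT factors to induce a later wave of antiviral genes. NRF2 is the transcription factor that answers electrophiles and oxidants, with glutathione synthesis enzymes and haem oxygenase among its targets.

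Genes of that later interferon wave were among the most uniformly lower here, and promoters of 5 of them are shown because they carry the letters for which this wave is known. The interferon-stimulated response element was searched as GAAA and GAAA 2 bases apart, on both strands in the 250 bases before the start site, and its matches are in capitals. The promoters are from RefSeq (GRCh38.p14), all 5 on the plus strand of the genome, and read 5′ to 3′: HERC5 at chr4:88456869-88457118, IFIT3 at chr10:89327747-89327996, ISG15 at chr1:1013247-1013496, IFIT1 at chr10:89392373-89392622 and ISG20 at chr15:88638766-88639015.
HERC5: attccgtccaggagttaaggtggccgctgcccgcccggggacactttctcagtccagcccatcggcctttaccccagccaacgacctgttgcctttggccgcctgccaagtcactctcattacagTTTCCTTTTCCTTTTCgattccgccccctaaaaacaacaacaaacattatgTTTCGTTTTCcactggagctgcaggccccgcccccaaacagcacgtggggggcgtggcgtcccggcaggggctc
IFIT3: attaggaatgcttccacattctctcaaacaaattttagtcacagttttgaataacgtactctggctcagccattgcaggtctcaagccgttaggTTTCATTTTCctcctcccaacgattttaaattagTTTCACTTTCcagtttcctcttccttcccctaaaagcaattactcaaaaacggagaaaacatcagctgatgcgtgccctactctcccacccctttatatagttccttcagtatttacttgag
ISG15: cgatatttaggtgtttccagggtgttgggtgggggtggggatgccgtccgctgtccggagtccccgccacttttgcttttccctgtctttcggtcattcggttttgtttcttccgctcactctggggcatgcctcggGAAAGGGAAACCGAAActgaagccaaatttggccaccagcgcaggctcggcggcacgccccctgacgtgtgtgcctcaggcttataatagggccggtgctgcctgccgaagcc
IFIT1: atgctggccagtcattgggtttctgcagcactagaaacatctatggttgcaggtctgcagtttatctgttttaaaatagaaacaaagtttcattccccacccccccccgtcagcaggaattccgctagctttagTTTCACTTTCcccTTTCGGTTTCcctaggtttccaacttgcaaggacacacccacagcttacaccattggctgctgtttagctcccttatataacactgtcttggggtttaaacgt
ISG20: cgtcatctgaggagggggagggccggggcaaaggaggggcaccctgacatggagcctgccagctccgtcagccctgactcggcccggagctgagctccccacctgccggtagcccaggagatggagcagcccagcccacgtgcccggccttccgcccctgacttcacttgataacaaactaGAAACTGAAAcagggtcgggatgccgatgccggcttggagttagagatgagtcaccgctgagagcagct
HERC5 held 3 matches, IFIT3, ISG15 and IFIT1 held 2 each and ISG20 held 1. The letters occurred in 4.28% of 2688 promoters of genes called lower, in 1.66% of 2473 promoters of genes called higher and in 3.07% of all 27305 promoters of this length in the RefSeq table. For 5 other motifs, searched the same way, the shares in genes called lower and higher were closer together: 2.31% and 1.42% for the NF-kB letters GGG and TTTCC 2 bases apart, 12.1% and 11.8% for the antioxidant response element core TGACNNNGC, 3.79% and 3.96% for the AP-1 letters TGANTCA, 3.12% and 2.51% for the cyclic AMP response element TGACGTCA, and 9.41% and 8.21% for the E-box CACGTG. In all promoters of the table these 5 shares were 1.73%, 11%, 6.6%, 1.77% and 6.49%, in the same order. In the 10958 promoters matched to genes tested, which include those of the called genes, they were 1.99%, 12.1%, 4.16%, 2.82% and 8.78%. The interferon letters were in 2.56% of these 10958. The matched promoters cover 78.8% of the genes tested, so the unmatched genes are not described. TGACNNNGC and TGANTCA can match at the same bases. Promoters were matched for 81.5% of the genes called lower and 81% of those called higher, but for 72.5% of the interferon-stimulated genes tested, so a share over that list is void. Of the 29 matched members 18 held the letters and 11 did not, and the 5 promoters printed were picked among those that do. These are counts of letters and were chosen with the values in view.

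The libraries held 18478618 to 30107819 reads in named genes. Normalized totals differed between groups, from 17774466 ± 305501 (mean ± SD, n = 6) in DCVC and 21135356 ± 563705 in Control to 21831254 ± 235112 in DCVC_LPS and 29427331 ± 839114 in LPS, and list medians or counts are given under equal totals as well. All 10 macrophage and monocyte markers were present, with summed levels of 74245 to 81973 (Control), 44586 to 49472 (DCVC), 30056 to 34296 (LPS only) and 30788 to 33676 (both agents). The 4 markers of dividing cells summed to 540 to 3280, 383 to 1235, 544 to 2095 and 296 to 628 in the same order. Of the markers of epithelial, B and erythroid cells, 0 of 4, 0 of 3 and 0 of 3 reached a mean of 10, and of those of fibroblast, endothelial, T and neutrophil cells 1 of 4 (COL1A1), 2 of 3 (PECAM1 and VWF), 1 of 4 (TRAC) and 2 of 3 (ELANE and CSF3R) did. Summed levels were 4552 to 7440 in Control, 1430 to 2150 in LPS, 2096 to 2931 in DCVC and 1020 to 1504 with both agents for the endothelial markers, 1964 to 2525, 127 to 324, 1377 to 1880 and 176 to 331 for the T cell markers, and 680 to 1339, 828 to 1420, 1446 to 2652 and 1484 to 2915 for the neutrophil markers. The part of these markers in the results was not tested. In bulk libraries fewer cells with a transcript and less of it per cell cannot be told apart.

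Some libraries stood apart. In DCVC_LPS, library F had the highest level of 39 of the 40 interferon-stimulated genes, and in LPS, library E had the lowest level of 33 of them and library F the highest level of 29. Same-lettered libraries deviated together, and the letters paired off as A with B, C with D and E with F. The main fit has no letter term, so its SE and p-values do not take this into account. Values within pairs are given for the genes described below whose value in a pair was over 1.5 times larger or smaller than in all libraries.

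The LPS response was smaller in DCVC-treated cells in both directions. In all, 6350 of the genes were called (45.7%), 3053 of them higher (22.0% of 13900) and 3297 lower (23.7%), with at least a 2-fold difference for 920 (6.62%) and 1047 (7.53%). Genes were then sorted by the mean of their 2 LPS changes. With equal group sizes its error is uncorrelated with that of the interaction if the groups have the same spread, as the fit assumes. Where groups differ in spread, the 2 errors can be correlated. The 1642 genes raised at least 2-fold by LPS held 1063 genes called lower (64.7%) and 76 called higher (4.63%). Their median LPS change was 2.17 without DCVC and 1.28 with it. The 2041 genes lowered at least 2-fold held 1169 called higher (57.3%) and 59 called lower (2.89%), with a median LPS change of -1.87 without DCVC and -1.16 with it. Over all genes tested the 2 medians were both -0.03 and the median interaction was 0.02. With all 4 group means at least 10, 855 of 1261 genes so raised were called lower (67.8%). Of 1586 so lowered, 977 were called higher (61.6%).

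**Figure D1:**
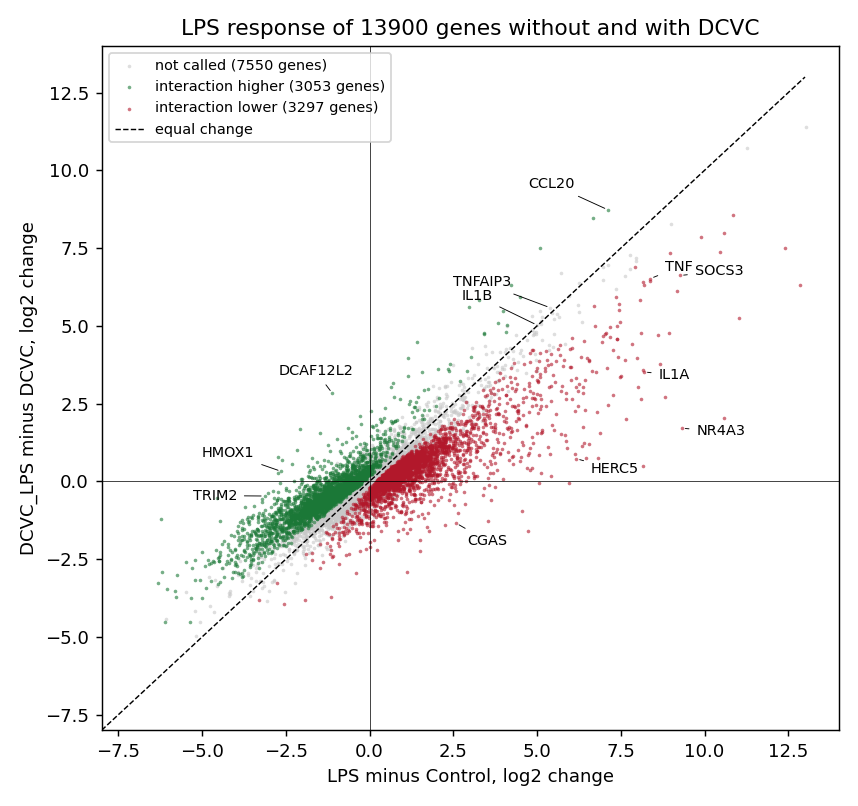
Each point is 1 of the 13900 genes, with its log2 LPS change in cells without DCVC on the x axis and in DCVC-treated cells on the y axis, and the dashed line marks equal changes. Genes raised by LPS lie mostly below the line (red, 3297 called lower) and genes lowered by LPS mostly above it (green, 3053 called higher), while IL1B and TNFAIP3 lie close to the line and CCL20 lies above it.

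LPS without DCVC raised 5253 genes (37.8%) and lowered 5639 (40.6%), and LPS after DCVC raised 4160 (29.9%) and lowered 4475 (32.2%). Raised and lowered hold for the deposited scale, on which LPS libraries had the largest totals. Only the interaction was refitted under equal totals, so the direction of small LPS changes may depend on the scale. Of the genes called lower in the interaction, 1908 were raised in both arms, 883 were raised without DCVC and not called with it, 198 were not called without DCVC and lowered with it, and 189 were raised without DCVC and lowered with it. Of the genes called higher, 1832 were lowered in both arms and 806 were lowered without DCVC and not called with it. A further 157 were not called without DCVC and raised with it, and 114 were lowered without DCVC and raised with it. Another 124 genes raised in both arms were called higher, and 104 lowered in both arms were called lower. The 95% interval of the interaction lay within 2-fold either way for 8500 genes (61.2%), 2993 of which were also called. The interaction was below 0 for all 6 letters in 3828 genes (27.5%), 3080 of them called lower (22.2%), and above 0 for all 6 in 3750 (27.0%), 2791 of them called higher (20.1%). For 190 genes called higher and 48 called lower the difference of differences in normalized counts, which are not logarithms, had the opposite sign.

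With every library scaled to the same total the median of all genes moved by 0.18, to 0.20, and 4600 genes were called higher and 2232 lower, so that the share called higher among all calls went from 48.1% to 67.3%. With TMM factors it was 41.4%. Within the letter pairs the calls were 2692 higher and 3234 lower for A/B, 3640 and 3495 for C/D, and 1281 and 1578 for E/F. With the letters as a block 3917 genes were called higher and 3924 lower. These counts of 13900 genes are the background for list counts below in the same setting. In the main fit that background is 22.0% higher and 23.7% lower.

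Among the parts of the LPS receptor and its adaptors, of which 22 were tested, 4 were called higher and 4 lower, near the background of 22.0% and 23.7%. Under equal totals 7 were higher and 2 lower, and with the letters as a block 7 and 5. MYD88, the adaptor shared by most Toll-like receptors, ran from 1031 to 1405 normalized counts (median 1155) in Control and from 3832 to 5247 (median 4904) in LPS, and after DCVC from 708 to 893 (median 749) without LPS and from 670 to 1564 (median 845) with it. LPS raised it by 2.00 ± 0.13 without DCVC, and the change with DCVC was 0.23 ± 0.13 (adjusted p = 0.147), an interaction of -1.78 ± 0.19 (adjusted p = 6.28e-08) that was below 0 for all 6 letters. Without library F, DCVC_LPS lay within 670 to 884.

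TLR4 itself had an interaction of -0.90 ± 0.19 (adjusted p = 0.000494). Its levels were 2121 ± 331 in Control and 3743 ± 194 in LPS (SD, n = 6), but 1127 ± 190 in DCVC and 1095 ± 294 in DCVC_LPS. TIRAP, the bridging adaptor that brings MYD88 to the membrane, went the other way (0.87 ± 0.14, adjusted p = 2.69e-05), with LPS changes of -1.11 without DCVC and -0.24 with it. CD14, the co-receptor that hands LPS to the complex, had LPS changes of -3.82 without DCVC and -3.21 with it, and its interaction of 0.61 ± 0.39 was not called (adjusted p = 0.207). With the letters as a block it was called (adjusted p = 0.0193), and it was above 0 for all 6 letters. It was also called within A/B (0.59, adjusted p = 0.0488) and C/D (0.85, adjusted p = 0.00375), but not within E/F (0.41, adjusted p = 0.723).

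NF-kB subunits and inhibitors split into members with and without an interaction. Of 16 tested, 1 was called higher and 10 lower, at a median of -0.65 against 0.02 for all genes and -0.47 under equal totals. All 16 were called raised in each arm, by a median of 3.82 without DCVC and 3.73 with it. NFKB1, which encodes p50 and its precursor p105, had an interaction of -0.59 ± 0.11 (adjusted p = 8.45e-05), and -0.38 within A/B. NFKBIA, the inhibitor IkB-alpha and a rapid NF-kB target, had an interaction of -0.98 ± 0.34 (adjusted p = 0.0223). That call was lost under equal totals (adjusted p = 0.0527) and without letter C (0.089) or D (0.0895), and the value was -0.55 within A/B and -1.43 within C/D.

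TNFAIP3, the ubiquitin-editing inhibitor A20, showed no called interaction. Its level went from 1115 ± 337 in Control to 45602 ± 4290 in LPS and from 282 ± 44.2 in DCVC to 13462 ± 1645 in DCVC_LPS, rises of 5.40 ± 0.15 and 5.58 ± 0.15 on the log2 scale. The interaction of 0.18 ± 0.21 had a 95% interval from -0.26 to 0.61, although letters A and B alone gave a call (0.72, adjusted p = 2.85e-05), against -0.17 within C/D and -0.01 within E/F. NFKB2, the precursor of p52, gave -0.10 ± 0.17 (interval -0.45 to 0.25), with 0.08 within A/B and -0.28 within E/F. RELB, its partner, gave 0.52 ± 0.27 (adjusted p = 0.126), called higher without Control library F (0.65, adjusted p = 0.0414) and under equal totals (adjusted p = 0.0349). RELB was also called higher within A/B (0.89, adjusted p = 0.00119) and C/D (0.32, adjusted p = 0.0183), but not within E/F (0.35). For TNFAIP3 and NFKB2 the DCVC-treated cells had lower levels before and after LPS, and the fold of the rise was not separated between the arms.

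TNIP3, another inhibitor of the pathway, stood far from the rest of its list at -4.02 ± 0.40 (adjusted p = 2.13e-08). It had 8 reads in Control in all and 129 in DCVC, and levels of 538 ± 269 in LPS and 310 ± 38.6 in DCVC_LPS. The unstimulated cells differed by far more between the arms than the LPS-treated ones, whose ranges, 359 to 1068 and 244 to 354, adjoined.

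Cytokine genes were lower with few exceptions. Of 26 tested, 0 were called higher and 20 lower, at a median of -2.26 (-1.91 under equal totals), with a median LPS rise of 4.99 without DCVC and 2.81 with it. Under edgeR on recovered reads 15 were called lower, and within letters E/F 13. These counts include 3 genes with a group at 0 reads, and genes that passed the limit on the mean through LPS alone, such as IL10.

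TNF, the early inflammatory cytokine, ran from 98.6 to 518 normalized counts (median 257) in Control and from 39930 to 109607 (median 103174) in LPS, and after DCVC from 49.1 to 137 (median 68.8) without LPS and from 6437 to 8439 (median 7097) with it. No LPS library overlapped a DCVC_LPS library, and Control and DCVC overlapped. LPS multiplied the level by 332 without DCVC and by 92 with it on the log2(value + 1) scale, an interaction of -1.85 ± 0.49 (adjusted p = 0.00353). The single letters lay between -2.10 and -1.32.

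IL1B, the precursor of interleukin-1 beta, gave a contrast to TNF. It ran from 5906 to 21533 (median 19341) in Control and from 379302 to 610160 (median 529688) in LPS, and after DCVC from 2164 to 7050 (median 5792) without LPS and from 150459 to 191179 (median 159068) with it. DCVC libraries lay below most Control libraries, with library F of Control in their range, and DCVC_LPS libraries lay below all LPS libraries. LPS raised it by 5.01 ± 0.27 and 5.02 ± 0.27, and the interaction was 0.01 ± 0.38 with a 95% interval from -0.77 to 0.79 (adjusted p = 0.984). By pair it was 0.26, -0.15 and -0.08.

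IL1A is its neighbour in function and on chromosome 2 (112773915 to 112784590, minus strand, GRCh38, GENCODE 29, against 112829751 to 112836903 for IL1B). IL1A had one of the 10 lowest interactions among called genes with an overall mean of at least 50 and a mean of at least 10 in each group. It ran from 7.24 to 27.3 (median 18.7) in Control and from 4334 to 6178 (median 4495) in LPS, and after DCVC from 11.6 to 62.4 (median 40.2) without LPS and from 343 to 500 (median 394) with it. The log2 rise was 8.19 ± 0.33 without DCVC and 3.52 ± 0.33 with it, an interaction of -4.67 ± 0.46 (adjusted p = 2.24e-08). All 6 letters were between -5.45 and -3.81.

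Several cytokines were near or at 0 before LPS, so that no LPS fold is given. IL6, an acute-phase cytokine, had 2 reads in Control in all and 0 in DCVC, and stood at 1474 to 3197 in LPS and 26.7 to 84.5 in DCVC_LPS. IL10, an anti-inflammatory cytokine, had 0 reads in Control and 4 in DCVC, and stood at 32 to 78.8 in LPS and 0 to 3.23 in DCVC_LPS. CSF2, a growth factor of macrophages and granulocytes, had 1 and 0 reads and stood at 386 to 719 in LPS and 22.6 to 33.7 in DCVC_LPS. In each of the 3, LPS and DCVC_LPS did not overlap. Limma on log2(value + 1) called the interaction for all 3, but the edgeR test on reads did not for IL6 (adjusted p = 0.915) or CSF2 (adjusted p = 0.83), and the fitted value depends on the pseudocount. CLCF1, a cytokine of the interleukin-6 family that was measurable in all groups, was raised from 26 ± 12.4 in Control to 339 ± 67.2 in LPS, whereas DCVC and DCVC_LPS were at 21.5 ± 9.55 and 19.2 ± 7.56 (interaction -3.93 ± 0.44, adjusted p = 1.42e-07).

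**Figure D2:**
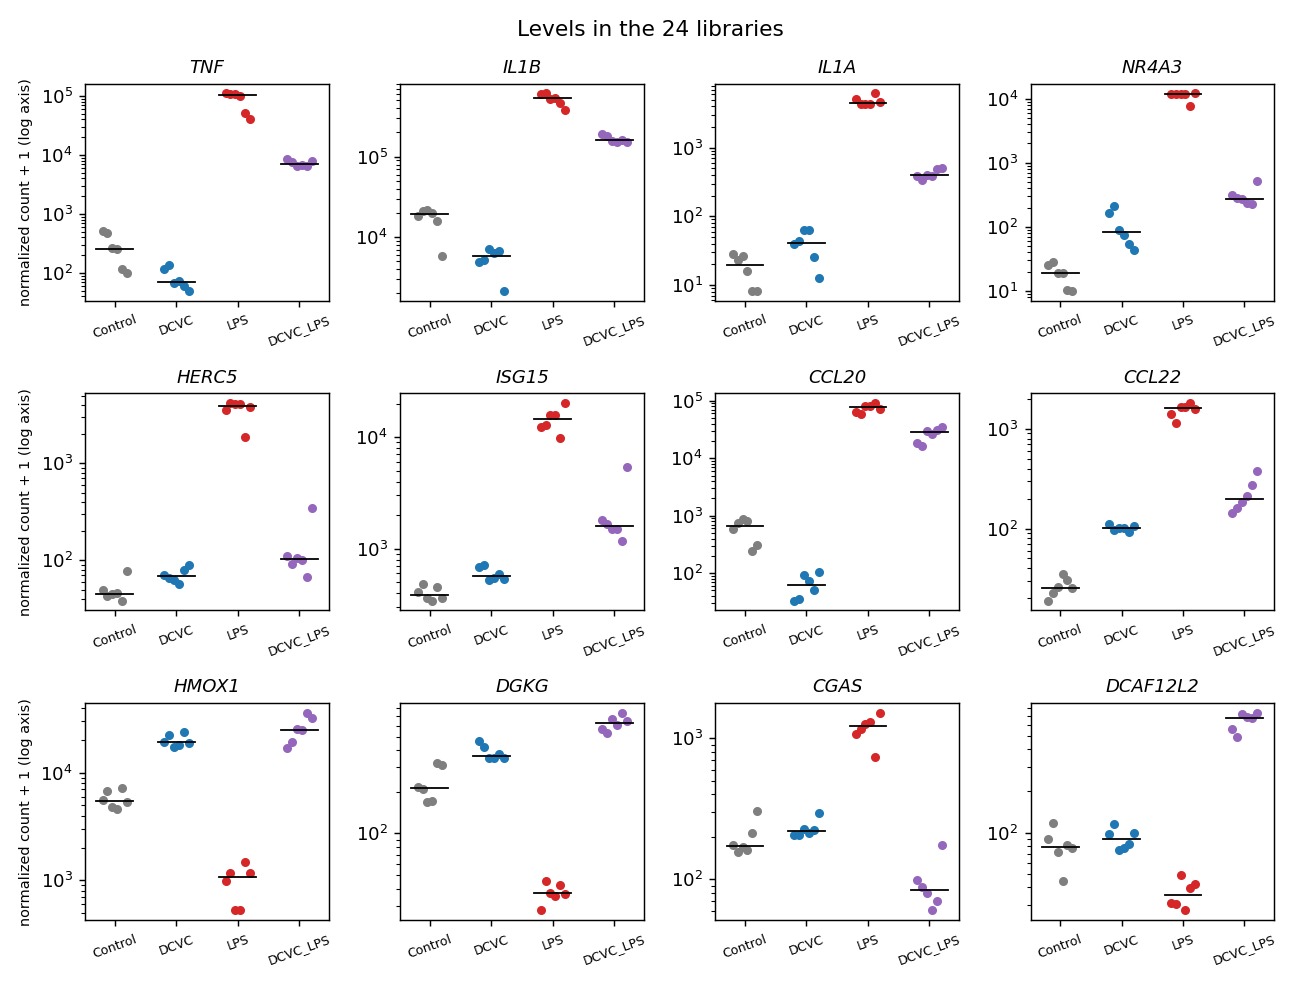
Points are normalized counts plus 1 on a log axis in single libraries, with letters A to F from left to right within each group and a line at the group median. IL1B rises by 5.01 from Control to LPS and by 5.02 from DCVC to DCVC_LPS in log2, NR4A3 and HERC5 rise far less in the second pair, and DCAF12L2 falls in the first pair and rises in the second.

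Chemokine genes resembled the cytokines, with 1 of 20 called higher and 15 lower at a median of -1.74 (-1.53 under equal totals). The counts include 4 genes that had no read in a group. With these set to the floor of 3 reads over the group, the median was -1.71. Under edgeR 1 was called higher and 9 lower. CXCL8, the neutrophil attractant interleukin-8, went from 6501 ± 4273 to 586655 ± 116473 without DCVC and from 12050 ± 6417 to 260193 ± 28581 with it, an interaction of -2.30 ± 0.70 (adjusted p = 0.00966). CCL2, a monocyte attractant, went from 21.9 ± 13.8 to 1649 ± 403 without DCVC and from 7.37 ± 2.63 to 19.8 ± 12 with it (interaction -5.20 ± 0.54, adjusted p = 4.11e-08).

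CCL22, a ligand of CCR4 and attractant of regulatory T cells, moved at both ends. It ran from 17.9 to 34.3 (median 24.5) in Control and from 1140 to 1806 (median 1618) in LPS, and after DCVC from 91.6 to 109 (median 100) without LPS and from 141 to 376 (median 197) with it. DCVC alone thus had more of it than Control, and DCVC_LPS had less than LPS, without overlap in either case. The LPS rise was 5.89 ± 0.18 without DCVC and 1.07 ± 0.18 with it, giving -4.81 ± 0.26 (adjusted p = 1.38e-12).

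The chemokine called higher was CCL20, the ligand of CCR6. It ran from 239 to 891 (median 661) in Control and from 59558 to 90145 (median 76570) in LPS, and after DCVC from 32.4 to 104 (median 61.3) without LPS and from 16480 to 35099 (median 28190) with it. Levels were lower with DCVC in both states, and more so before LPS. LPS therefore raised it by 8.73 ± 0.31 with DCVC and 7.12 ± 0.31 without, an interaction of 1.61 ± 0.43 (adjusted p = 0.00389). In normalized counts the difference of differences was negative, at -48209, and within letters E/F the interaction was not called (0.59, adjusted p = 0.339), against 2.42 within A/B.

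CXCL9 and CXCL10, chemokines induced by interferon, were near 0 before LPS. CXCL9 had 0 reads in Control and 1 in DCVC, with 57.4 to 488 in LPS and 0 to 2.56 in DCVC_LPS. CXCL10 had 28 reads in Control and 0 in DCVC, with 1913 to 8145 in LPS and 58.2 to 635 in DCVC_LPS. For CXCL10 the interaction rested on the scale: limma gave -3.07 ± 0.72 (adjusted p = 0.00117), edgeR on reads 0.38 (adjusted p = 0.784) and DESeq2 on reads -0.09 (adjusted p = 0.96). For CXCL9 edgeR did not call it (adjusted p = 0.102).

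The interferon arm gave the most uniform result. All 40 interferon-stimulated genes tested were called lower, against 23.7% of all genes, at a median of -2.46. They were called in 39 of 40 cases under equal totals (median -2.25), in 37 of 40 by edgeR, in 40 of 40 without DCVC_LPS library F (median -2.80) and in 40 of 40 without LPS library E (median -2.54). Within letters E/F, with 2 libraries a group, 12 were called (median -1.94). LPS raised these genes by a median of 4.48 without DCVC and 1.70 with it. The list includes 1 gene with a group at 0 reads. By letter the median was -2.33, -2.65, -2.91, -2.96 and -2.67 for A to E and -1.51 for F, and 39 of the 40 genes were below 0 for all 6 letters.

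HERC5, an enzyme that attaches the ubiquitin-like protein ISG15 to its targets, had the lowest interaction of the list among members with a mean of at least 10 in every group. It ran from 37.5 to 76.9 (median 44.2) in Control and from 1889 to 4162 (median 3939) in LPS, and after DCVC from 56.6 to 89.2 (median 67.2) without LPS and from 66.4 to 345 (median 102) with it. In DCVC_LPS, 5 libraries lay between 66.4 and 109 and library F at 345. LPS multiplied it by 71.9 without DCVC and by 1.66 with it, giving -5.44 ± 0.38 (adjusted p = 1.11e-10).

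ISG15 itself went from 400 ± 55 to 14523 ± 3566 without DCVC and from 598 ± 82.7 to 2181 ± 1594 with it, an interaction of -3.49 ± 0.34 (adjusted p = 1.36e-08). IFIT1, IFIT2 and IFIT3, which bind foreign RNA or one another, gave -2.79 ± 0.67, -4.11 ± 0.50 and -3.80 ± 0.39, and the exonuclease ISG20 gave -2.78 ± 0.32. MX2, a GTPase that restricts viruses, gave -3.82 ± 0.38. The smallest were BST2, a tether of budding virions, at -0.81 ± 0.19 (adjusted p = 0.00099) and IFITM2, which blocks viral fusion, at -0.48 ± 0.16 (adjusted p = 0.0162). IFITM2 was not called under equal totals (adjusted p = 0.142) or without letter D (adjusted p = 0.0697). IDO1, the tryptophan-degrading enzyme of the list, had 0 reads in Control and 3 in DCVC, with 5024 to 14920 in LPS and 61.3 to 391 in DCVC_LPS, and edgeR did not call it (adjusted p = 0.216).

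Upstream of these genes, IFNB1, the gene of interferon beta, had 0 reads in Control and 0 in DCVC, and stood at 24 to 111 in LPS and 1.08 to 13.6 in DCVC_LPS. With both baselines at 0 its interaction carries only the difference between those groups, and edgeR gave an adjusted p of 1. The value was -4.80 within A/B and -1.67 within E/F. STAT2, which carries the interferon signal, was raised by 2.84 ± 0.16 without DCVC and by 0.73 ± 0.16 with it, an interaction of -2.11 ± 0.23 (adjusted p = 9.88e-08). IRF1, a transcription factor of the same response, gave -1.61 ± 0.23 (adjusted p = 3.98e-06). In the list of interferon regulators, JAK kinases and STATs, 4 of 23 were called higher and 13 lower (median -0.81, and -0.63 under equal totals).

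**Figure D3:**
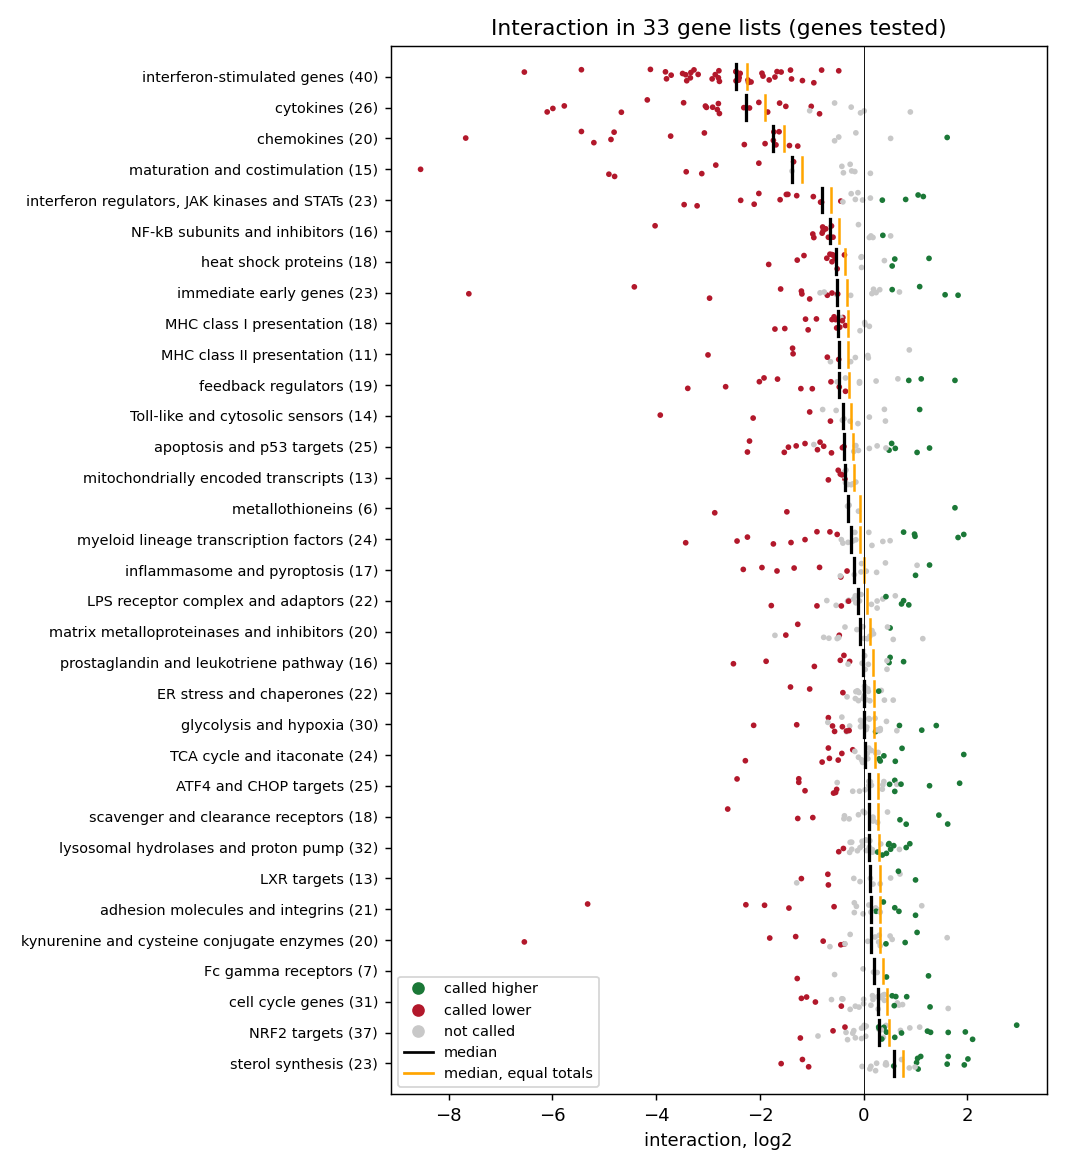
Rows are 33 gene lists with the number of genes tested, points are the interactions of their members in log2, black ticks are medians on the deposited scale and orange ticks medians under equal totals. Interferon-stimulated genes, cytokines, chemokines and maturation genes lie furthest to the left, and sterol synthesis genes and NRF2 targets have the highest medians, at 0.58 and 0.30.

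Maturation and costimulation genes had 0 of 15 called higher and 8 lower, with a median of -1.38 (-1.18 under equal totals). CCR7, the receptor that guides maturing cells to lymph nodes, had 8 reads in Control in all, stood at 1804 to 4799 in LPS, and after DCVC at 6.22 to 19.5 without LPS and 25.5 to 107 with it, and had one of the 3 lowest interactions among genes with a group mean under 10. LAMP3, a lysosomal marker of mature dendritic cells, stood at 1.61 ± 1.99 in Control and 2.69 ± 1.52 in DCVC, and at 11479 ± 2570 in LPS and 685 ± 413 in DCVC_LPS. CD80, a ligand of CD28, stood at 1.9 ± 1.24 and 1.64 ± 1.3 before LPS and at 2496 ± 495 and 565 ± 187 after it, and edgeR did not call it (adjusted p = 0.0911). CD83, a surface marker of the same maturation step, was raised by 5.61 ± 0.14 and 5.38 ± 0.14, and its interaction of -0.23 ± 0.21 had an interval from -0.65 to 0.20 (adjusted p = 0.388), with 0.01 within A/B and -0.54 within E/F.

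Antigen presentation genes of MHC class I were lower by less. Of 18 tested, 0 were called higher and 13 lower at a median of -0.49, and under equal totals 1 higher and 9 lower at -0.31. TAP1, a subunit of the peptide transporter, went from 2674 ± 323 to 21606 ± 4295 without DCVC and from 2748 ± 314 to 6838 ± 1861 with it, so that the unstimulated levels overlapped and the stimulated ones did not (interaction -1.71 ± 0.19, adjusted p = 1.72e-07). PTGS2, the inducible cyclooxygenase, also started from overlapping levels, 97.8 ± 19.6 in Control and 91.4 ± 24.1 in DCVC, and reached 10089 ± 5871 in LPS and 1424 ± 279 in DCVC_LPS (interaction -2.51 ± 0.40, adjusted p = 1.65e-05). Within letters E/F, PTGS2 was not called (-1.09, adjusted p = 0.162), against -3.74 within A/B.

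The lowest interaction of a gene measurable in all 4 groups was that of NR4A3, an orphan nuclear receptor of the immediate early class on chromosome 9 (99821855 to 99866891, plus strand). It ran from 9.05 to 27.3 (median 18.1) in Control and from 7803 to 12065 (median 11880) in LPS, and after DCVC from 41.9 to 207 (median 80.7) without LPS and from 223 to 518 (median 274) with it. DCVC libraries were above all Control libraries, and DCVC_LPS libraries were far below all LPS libraries. LPS raised it by 9.32 ± 0.32 without DCVC and by 1.71 ± 0.32 with it, an interaction of -7.61 ± 0.45 (adjusted p = 1.03e-11), with single letters between -8.26 and -6.63.

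Its relatives NR4A1 and NR4A2 were far less abundant, at 55.7 ± 24.9 and 36 ± 15 in LPS and 4.29 ± 2.99 and 22.8 ± 7.9 in DCVC_LPS. Both had interactions below 0 for all 6 letters (-4.42 ± 0.52 and -2.97 ± 0.55). Before LPS, NR4A1 had 7 reads in all in Control and 17 in DCVC, and NR4A2 had 25 and 136. For NR4A2 the DCVC libraries, at 10.7 to 28.4, lay above the Control libraries, at 0 to 6.85, and already overlapped those with both agents. Its LPS libraries, at 20.8 to 56.2, overlapped the DCVC_LPS libraries, at 13.3 to 35.

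Immediate early genes as a list had 4 of 23 called higher and 10 lower, beside 22.0% and 23.7% of all genes (median -0.52, and -0.33 under equal totals). FOS, an AP-1 subunit, had LPS changes of -2.64 ± 0.14 without DCVC and -1.07 ± 0.14 with it, an interaction of 1.57 ± 0.20 (adjusted p = 1.05e-06).

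Of the myeloid lineage transcription factors, 5 of 24 were called higher (near the 22.0% of all genes) and 9 lower, at a median of -0.25, and under equal totals 6 and 8 at -0.07. SPI1, which encodes PU.1, had LPS changes of -0.53 ± 0.16 without DCVC and 0.46 ± 0.16 with it (interaction 0.99 ± 0.23, adjusted p = 0.00116), and the interaction was 0.58 within E/F. BHLHE40, a repressor induced by many stimuli, had LPS changes of 3.69 ± 0.19 without DCVC and 0.26 ± 0.19 with it (interaction -3.43 ± 0.27, adjusted p = 5.31e-10), from a baseline that was 387 ± 99.3 in Control and 1027 ± 276 in DCVC.

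Among feedback regulators of cytokine signalling, 3 of 19 were called higher and 10 lower (median -0.47), and under equal totals 5 and 7 (median -0.29). SOCS3, an inhibitor of cytokine receptors, was raised by 9.27 ± 0.23 without DCVC and by 6.62 ± 0.23 with it, giving -2.66 ± 0.33 (adjusted p = 5.99e-07). CISH, another member of the SOCS family, changed direction at low levels: it went from 4.68 ± 1.97 in Control to 16.4 ± 9.11 in LPS, and from 18 ± 4.48 in DCVC to 4.12 ± 1.29 in DCVC_LPS (interaction -3.39 ± 0.44, adjusted p = 1.14e-06).

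The remaining genes with the lowest interactions belong to no single pathway. CCN2, a matricellular protein also known as connective tissue growth factor, went from 51.6 ± 21.5 to 4543 ± 2600 without DCVC and from 12.1 ± 7.6 to 31.6 ± 23 with it (interaction -5.17 ± 0.61, adjusted p = 2.92e-07). PLEKHA4, a phosphoinositide-binding protein, gave -4.19 ± 0.38, and KCNN2, a calcium-activated potassium channel, gave -3.87 ± 0.26. For these 3 genes all 6 letters were below 0.

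On the other side stood genes that LPS lowered in cells without DCVC. HMOX1, haem oxygenase 1, on chromosome 22 (35380361 to 35394214, plus strand), ran from 4587 to 7268 (median 5464) in Control and from 526 to 1496 (median 1069) in LPS, and after DCVC from 17472 to 23852 (median 19172) without LPS and from 16889 to 35663 (median 25049) with it. The LPS libraries were the lowest, and DCVC and DCVC_LPS overlapped. The LPS change was -2.63 ± 0.22 without DCVC and 0.32 ± 0.22 (adjusted p = 0.208) with it, an interaction of 2.95 ± 0.31 (adjusted p = 4.75e-08), with letters between 2.31 and 3.69.

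ABHD4, a lipase of N-acyl phospholipids, showed the same pattern without a rise in DCVC alone. It ran from 703 to 1636 (median 1522) in Control and from 130 to 307 (median 180) in LPS, and after DCVC from 989 to 1288 (median 1176) without LPS and from 1210 to 1609 (median 1467) with it. Only the LPS group, among the 4, stood apart from the others, and the interaction was 3.0 ± 0.28 (adjusted p = 6.99e-09). TRIM2, a ubiquitin ligase, and SLCO2B1, an organic anion transporter, had LPS changes of -3.13 ± 0.12 and -3.22 ± 0.18 without DCVC and -0.47 ± 0.12 and -0.55 ± 0.18 with it, giving 2.66 ± 0.17 (adjusted p = 3.08e-11) and 2.67 ± 0.25 (adjusted p = 1.13e-08).

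GAPT, an adaptor of B and myeloid cells, gave 2.67 ± 0.36 and TRDN, triadin, 2.73 ± 0.39. For TRDN both LPS changes were negative, -5.01 and -2.28. MERTK, a receptor for apoptotic cells, was likewise lowered in both arms, from 3281 ± 1142 to 156 ± 55.2 without DCVC and from 2383 ± 602 to 350 ± 96.6 with it (interaction 1.62 ± 0.36, adjusted p = 0.000659). IDH1, the cytosolic isocitrate dehydrogenase, went from 966 ± 294 to 109 ± 36.3 and from 1208 ± 329 to 517 ± 102 (interaction 1.93 ± 0.29, adjusted p = 8.83e-06).

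Some genes called higher were abundant in Control only. P2RY12, a purinergic receptor, stood at 285 ± 248 in Control, and at 20 ± 16.9, 17 ± 9.64 and 11.6 ± 11.2 in DCVC, LPS and DCVC_LPS (interaction 2.92 ± 0.87, adjusted p = 0.00777). RGS4, a regulator of G-protein signalling, stood at 155 to 387 in Control and at most 11.1 in any other library. ADRA2B, an adrenergic receptor, stood at 280 to 689 in Control, against 8.35 to 25.4 in LPS, 0 to 17.8 in DCVC and 0 to 5.12 with both agents. These 3 genes were low in all groups other than Control. ADRA2B gave 6.07 within A/B and 2.84 within E/F. SIT1, a signalling adaptor, was different, at 110 ± 25.2 in Control and 124 ± 29.8 in DCVC, with 4 reads over the 6 LPS libraries and 8.17 to 24.7 in DCVC_LPS.

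UST-AS2 (interaction 2.67 ± 0.31) is annotated antisense to UST, and whether counting used strand is not given in the sources used here, so its value is uncertain.

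**Figure D4:**
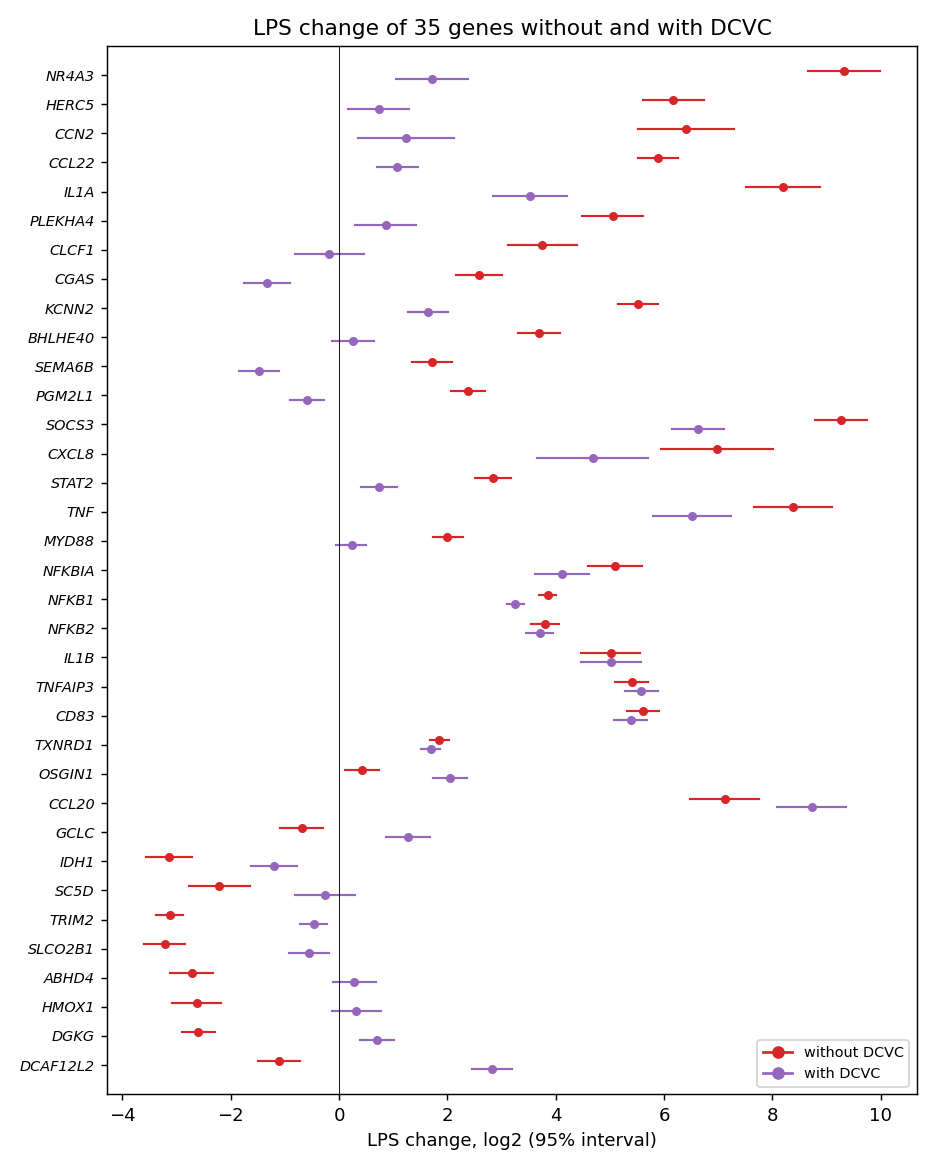
Points are log2 LPS changes of 35 genes without DCVC (red) and with DCVC (purple), and bars are 95% intervals from the fit. From NR4A3 to NFKB1 the purple points lie to the left of the red ones, from NFKB2 to TXNRD1 the intervals overlap, and from OSGIN1 to DCAF12L2 the purple points lie to the right.

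Sterol synthesis genes had the highest median of the 33 lists, 0.58 (0.75 under equal totals), with 9 of 23 called higher and 3 lower. With the letters as a block 15 were called higher and 3 lower, and 17 were called higher within A/B, 15 within C/D and 2 within E/F. The median LPS change was -1.08 without DCVC and -0.16 with it. SC5D, which acts late in cholesterol synthesis, went from 1241 ± 144 to 275 ± 73.4 without DCVC and from 1566 ± 650 to 1328 ± 637 with it (interaction 1.94 ± 0.38, adjusted p = 0.000205). MSMO1, a sterol demethylating oxidase, gave 2.01 ± 0.58 (adjusted p = 0.00642).

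The 3 members called lower were ones that LPS raised: STARD4, a cytosolic cholesterol carrier (-1.59 ± 0.26, adjusted p = 2.08e-05), LSS, lanosterol synthase (-1.18 ± 0.30, adjusted p = 0.00217), and INSIG1, which holds the sterol sensor in the endoplasmic reticulum (-1.06 ± 0.35, adjusted p = 0.017). STARD4 went from 1256 ± 232 to 9904 ± 2501 without DCVC and from 735 ± 201 to 1887 ± 412 with it. INSIG1 was not called without letter C (adjusted p = 0.0534) or D (adjusted p = 0.0549).

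NRF2 targets had 14 of 37 called higher and 3 lower at a median of 0.30, and 20 and 2 at 0.48 under equal totals. Within letters E/F the counts were 7 and 6, and with the letters as a block 18 and 5. GCLC, the catalytic subunit of glutamate-cysteine ligase, ran from 1536 to 5132 (median 2362) in Control and from 1395 to 1798 (median 1583) in LPS, and after DCVC from 1948 to 2392 (median 2284) without LPS and from 4127 to 6362 (median 5820) with it. Control and DCVC overlapped, and DCVC_LPS was above both the DCVC and the LPS libraries. DCVC_LPS overlapped Control, and in letter B it was lower, at 4127 against 5132. The LPS change was -0.69 ± 0.20 without DCVC and 1.27 ± 0.20 with it, an interaction of 1.96 ± 0.28 (adjusted p = 4.05e-06).

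OSGIN1, an oxidative stress-induced growth inhibitor, and SRXN1, which repairs oxidized peroxiredoxins, stood far higher with both agents than with either, in every library. OSGIN1 went from 159 ± 46.4 to 209 ± 37 without DCVC and from 1128 ± 160 to 4677 ± 597 with it (interaction 1.63 ± 0.21, adjusted p = 1.26e-06). SRXN1 went from 118 ± 46.5 to 175 ± 27.9 and from 522 ± 66.2 to 1989 ± 153 (interaction 1.29 ± 0.24, adjusted p = 9.33e-05). Without DCVC the Control and LPS ranges overlapped for both genes (105 to 218 and 177 to 278 for OSGIN1, 70.6 to 200 and 146 to 208 for SRXN1), and OSGIN1 was lower with LPS in letters A and B and SRXN1 in letter B. The interaction was 2.21 within A/B and 1.03 within E/F for OSGIN1, and 1.64 and 0.73 for SRXN1.

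TXNRD1, thioredoxin reductase, combined the agents without a called interaction. It ran from 3959 to 5949 (median 4983) in Control and from 16560 to 20698 (median 17198) in LPS, and after DCVC from 22928 to 29558 (median 27972) without LPS and from 85001 to 91304 (median 85877) with it. No 2 groups overlapped. LPS raised it by 1.85 ± 0.09 and 1.69 ± 0.09, and the interaction of -0.16 ± 0.12 had an interval from -0.41 to 0.09 (adjusted p = 0.29), with -0.06 within A/B and -0.28 within E/F.

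GCLM, the modifier subunit that pairs with GCLC, gave 0.29 ± 0.14 (adjusted p = 0.0944). It was called higher without LPS library E (0.36, adjusted p = 0.0239) or F (0.35, adjusted p = 0.0315) and under equal totals (adjusted p = 0.0141). GCLM was also called higher within A/B (0.41, adjusted p = 0.00452) and C/D (0.28, adjusted p = 0.0233), but not within E/F (0.17). NQO1, a quinone reductase, gave 0.43 ± 0.19 (adjusted p = 0.0612), with letters between 0.32 and 0.56. It was called with the letters as a block (adjusted p = 0.0161), under equal totals (adjusted p = 0.0133), and without any 1 of the Control libraries A to D or the LPS libraries E and F (adjusted p between 0.0129 and 0.0492). NQO1 was also called without letter E (adjusted p = 0.0436) or F (0.0478), and within A/B (0.000574) and C/D (4.91e-05), but not within E/F (0.0687). SLC7A11, the cystine transporter, gave -0.88 ± 0.44 (adjusted p = 0.103) and was called lower with the letters as a block (adjusted p = 0.037) and without Control library A (-1.08, adjusted p = 0.0388) or B (-1.18, adjusted p = 0.00874). It was also called lower without letter B (-1.09, adjusted p = 0.0316). By pair it was -0.03 for A/B, not called, and -0.89 for C/D and -1.73 for E/F, both called lower (adjusted p = 6.08e-06 and 0.00056).

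Some genes changed direction with DCVC. Among genes whose overall mean reached 50 and whose group means reached 10, 270 were called with LPS changes called in opposite directions in the 2 arms, 164 raised without and lowered with DCVC and 106 the reverse. CGAS, the cytosolic DNA sensor that makes cyclic GMP-AMP, ran from 155 to 306 (median 172) in Control and from 735 to 1505 (median 1211) in LPS, and after DCVC from 205 to 294 (median 218) without LPS and from 59.2 to 175 (median 83.3) with it. LPS raised it by 2.58 ± 0.21 without DCVC and changed it by -1.34 ± 0.21 with it, an interaction of -3.92 ± 0.29 (adjusted p = 2.68e-10).

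SEMA6B, a transmembrane semaphorin, went from 40.4 ± 9.4 to 136 ± 42.7 without DCVC and from 176 ± 30.5 to 62.8 ± 11.9 with it (interaction -3.19 ± 0.25, adjusted p = 6.79e-10). PGM2L1, which makes glucose 1,6-bisphosphate, went from 52.6 ± 9.1 to 279 ± 52.9 and from 80.3 ± 13.5 to 52.8 ± 7.3 (interaction -2.97 ± 0.21, adjusted p = 1.48e-10). For SEMA6B the DCVC libraries lay above all Control and all DCVC_LPS libraries, and for PGM2L1 library D of DCVC lay in the range of both.

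The highest interaction of a gene measurable in all groups belonged to DCAF12L2, a substrate-receptor-like gene on chromosome X (126163499 to 126166097, minus strand). It ran from 43.4 to 116 (median 78.1) in Control and from 26.3 to 47.9 (median 34.2) in LPS, and after DCVC from 73.8 to 114 (median 89) without LPS and from 492 to 730 (median 678) with it. Neither agent alone brought it above 116 in any library. The LPS change was -1.11 ± 0.18 without DCVC and 2.83 ± 0.18 with it, an interaction of 3.94 ± 0.26 (adjusted p = 4.05e-11), with letters between 3.75 and 4.08. Its neighbour and paralogue DCAF12L1, at 126549383 to 126552851, gave 2.41 ± 0.31 (adjusted p = 1.09e-06) at lower levels, 100 ± 20.4 in DCVC_LPS against 25.8 ± 10.2 in LPS. Reads of the 2 copies may be split between them, so both values are uncertain.

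DGKG, a diacylglycerol kinase, ran from 169 to 323 (median 213) in Control and from 26.8 to 44.4 (median 35.9) in LPS, and after DCVC from 347 to 467 (median 364) without LPS and from 528 to 738 (median 625) with it. No 2 of the 4 groups overlapped. LPS changed it by -2.61 ± 0.15 without DCVC and by 0.70 ± 0.15 with it, an interaction of 3.31 ± 0.21 (adjusted p = 2.41e-11).

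Of 22 endoplasmic reticulum stress genes and chaperones, 1 was called higher and 3 lower, and the interval lay within 2-fold for 19. That balance turned under equal totals, with 5 higher and 2 lower (median 0.19), and with the letters as a block it was 4 and 4. HSPA5, the chaperone BiP, stood at 19794 ± 6316, 16713 ± 3061, 24054 ± 3982 and 21439 ± 2524 in Control, DCVC, LPS and DCVC_LPS (interaction 0.05 ± 0.22, interval -0.41 to 0.51), with 0.18 within A/B and -0.04 within E/F. Lysosomal hydrolases and proton pump subunits had 9 of 32 called higher and 2 lower (median 0.11), with 29 intervals within 2-fold, 16 and 1 under equal totals (median 0.29), and 13 and 5 with the letters as a block. Glycolysis and hypoxia genes had 4 of 30 called higher and 8 lower at a median of 0.01, which became 10 and 4 at 0.19 under equal totals and 8 and 9 with the letters as a block. Of the 13 mitochondrially encoded transcripts, 0 were called higher and 5 lower (median -0.36), against 1 lower under equal totals, 10 with TMM factors, 10 with the letters as a block and 9 without DCVC_LPS library F. Within A/B, C/D and E/F 10, 12 and 0 were called lower. Heat shock proteins had 3 of 18 called higher and 11 lower (median -0.53, and -0.35 under equal totals). Beside the main counts of the lists in this paragraph, 22.0% of all genes were called higher and 23.7% lower.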

How the data were processed

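Poly-A RNA was measured in 24 libraries, 4 groups of 6. The deposited values are normalized counts (signal), which the authors made from gene counts. Per the submitters' processing notes build hg38 and the tools STAR, DESeq2 1.24.0, R 3.6.0, featureCounts 1.6.1, MultiQC 0.9 and FastQC 0.11.5 were used, with no role or order stated. Not given in the sources used here are the STAR version, annotation, strand and treatment of multiply mapped reads. In each library 100.0% of values were whole multiples of 1 step, within 0.1 read, so whole reads were recovered.

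Of 58381 entries, 19595 had no gene name (33.6% of entries, 1.01% of values) and were left out, and 51 symbols on 2 entries were summed. Genes with a mean of at least 10 were tested with limma 3.58.1 in R 4.3.3 (moderated with a trend) on log2(normalized count + 1), over all groups, without a block, with Benjamini-Hochberg adjustment. A fold change on this scale understates the change of low genes. On the recovered reads edgeR 4.0.16, with the deposited scaling, called 3107 genes higher and 3238 lower, and DESeq2 1.42.0 called 3215 and 3326. The code was tested on simulated data. Doses of 1 and 10 µM DCVC are not analysed here.

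Same-lettered libraries of different groups deviated together (36 correlations of deviations from group means over genes, 0.13 to 0.54). The letters were therefore used as a pairing in the replicate block, although the labels do not say what a letter marks. The main fit has no letter term, so its SE and p-values treat the 6 libraries of a group as independent. Correlations were 0.05 to 0.46 between the letters of a pair and -0.45 to 0.03 between pairs. The medians were 0.33 for the same letter, 0.29 for the other letter of its pair and -0.11 between pairs. Paired letters were thus nearly as alike as same-lettered libraries, and the block still counts them as separate. No 2 replicates agreed within sampling noise. The lowest chi-square per gene was 3.13, for Control C and D, and the highest 119, for Control B and F.

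Alternatives were equal totals, TMM factors, pseudocounts of 0.5 and 5, no filter, a mean of at least 50, a replicate block, single libraries and letters left out, letter pairs, edgeR, DESeq2 and a 2-fold limit. edgeR with TMM factors was added after seeing the data. Members and gene lists were chosen with earlier results of these data known. Genes were named as the 10 highest and lowest interactions with all group means at least 10, the 3 highest and lowest with a group mean under 10, the 3 highest and lowest with opposite LPS changes, all with a mean of at least 50, up to 2 per direction from each list by adjusted p, and 13 standing genes (TNF, IL1B, IL6, CXCL8, CCL2, CXCL10, IL10, HMOX1, GCLM, SLC7A11, NQO1, NFKBIA and CD14). Chosen after their values were seen were TLR4, TIRAP, TNFAIP3, NFKB1, NFKB2, RELB, IFNB1, STAT2, IRF1, IFIT1, IFIT3, ISG15, ISG20, MX2, BST2, IFITM2, CD80, CD83, LAMP3, NR4A2, CISH, GCLC, SRXN1, OSGIN1, TXNRD1, MSMO1, INSIG1, HSPA5 and SPI1. Gene positions are from GENCODE 29 (GRCh38) and promoters from RefSeq. Some genes are not reported here.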

Additional observations from a re-analysis of the deposited data

Results flagged for a closer look

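In 43 of 340 sets of 6 libraries (85 genes in 4 groups), 1 library lay far from the other 5 by Dixon's criterion, which chance alone meets in about 1 of 20 sets. Values are normalized counts, with the range of the other 5 libraries of the group in parentheses. Library E of LPS stood apart for IL10 32 (59.5 to 78.8), CXCL10 1913 (5646 to 8145), CXCL9 57.4 (287 to 488), HERC5 1889 (3578 to 4162), IFIT1 2632 (4323 to 5451), IFIT2 3218 (6608 to 8047), IFIT3 7279 (14255 to 15469), NR4A3 7803 (11753 to 12065), SOCS3 7251 (10030 to 11595), PLEKHA4 734 (1548 to 2317) and BHLHE40 4227 (4821 to 5103). Library F of DCVC_LPS stood apart for MYD88 1564 (670 to 884), TIRAP 288 (379 to 435), IL6 84.5 (26.7 to 37.8), STAT2 2259 (874 to 1082), HERC5 345 (66.4 to 109), ISG15 5406 (1175 to 1802), MX2 1565 (316 to 555), IDO1 391 (61.3 to 112), LAMP3 1509 (416 to 618) and FOS 257 (417 to 536). Library F of LPS stood apart for TNIP3 1068 (359 to 535), MX2 8741 (4137 to 5321), IFITM2 682 (401 to 486), LAMP3 16600 (9687 to 11150), TRIM2 473 (668 to 789) and SEMA6B 222 (111 to 131). Library F of DCVC stood apart for IL1B 2164 (4936 to 7050), CGAS 294 (205 to 226), TRIM2 2085 (2729 to 3152) and PTGS2 48.2 (88.3 to 118). Library F of Control stood apart for IL1B 5906 (15940 to 21533), HERC5 76.9 (37.5 to 48.3) and BHLHE40 204 (353 to 486). Library B of DCVC stood apart for CXCL9 0.977 (all others 0) and IDO1 2.93 (all others 0). Library C of Control stood apart for CSF2 0.947 (all others 0). Library D of Control stood apart for IL6 1.52 (all others 0). Where 5 libraries are at 0, any read in the other meets the criterion. The sets of CXCL9, IDO1, CSF2 and IL6, with 1, 3, 1 and 2 reads, were thus flagged by the floor. They are among the 43, and the rate of 1 in 20 does not hold for them. Library D of DCVC stood apart for PGM2L1 54.7 (81.1 to 95.1). Library E of DCVC stood apart for TNFAIP3 197 (280 to 322). Library C of DCVC_LPS stood apart for TXNRD1 91304 (85001 to 86323). Library D of DCVC_LPS stood apart for ADRA2B 0 (2.74 to 5.12). Library E of DCVC_LPS stood apart for CLCF1 6.13 (18.3 to 29.2). The interferon-stimulated genes without either are given with that list.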

How the results depend on the processing

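The counts of 3053 genes higher and 3297 lower stayed within 1.5 times under all alternatives but 3. Equal totals gave 4600 higher, letters E/F alone, with 2 libraries a group, gave 1281 and 1578, and a 2-fold limit gave 920 and 1047. Leaving out 1 letter gave 2434 to 3014 higher and 2813 to 3211 lower, and leaving out 1 library 2876 to 3126 and 3153 to 3392. With the letters as a replicate block the pairing gave 3917 higher and 3924 lower, and of the genes described it changed the calls of CD14, NQO1 and SLC7A11 only. The median of the LPS receptor list became 0.07 under equal totals and 0.02 within A/B, that of the inflammasome list 0.01 under equal totals, that of scavenger receptors -0.04 within E/F and that of Fc gamma receptors -0.01 within A/B. Some lists with smaller medians changed sign as well. Among them, prostaglandin genes went from -0.01 to 0.18 and metalloproteinases from -0.07 to 0.12 under equal totals, and glycolysis genes from 0.01 to -0.12 within E/F. CXCL10 became 0.38 with edgeR and 0.35 with edgeR and TMM factors, and the difference of differences in normalized counts was -48209 for CCL20. Within E/F 14 of the 85 genes described lost their call. The cause of these changes was not tested. At 0 to 28 reads in a group before LPS, fitted values of IL6, CSF2, CXCL9, CXCL10, IFNB1, IDO1 and CD80 depend on the test, and edgeR did not call them.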
